A study of Danio rerio with 11 samples.

Results

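Collagens, laminins and lysyl oxidases build and cross-link the extracellular matrix, and 55 of the 16536 genes in a table of zebrafish brain RNA bear a name of one of these families. They were chosen by gene name alone (names starting with col and a digit, with lama, lamb or lamc and a digit, or with lox). The name rule returned 39 collagen genes, 10 laminin genes and 4 lysyl oxidase genes. It also returned col4a3bpa and col4a3bpb, which encode ceramide transfer proteins and no collagen. They are counted among the 55 because the rule names them.

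The libraries came from whole brains of fish about 8 months old on a TLF x AB background, and all fish, controls included, carried the mpeg1-GFP transgene, a fluorescent marker of macrophages and microglia. The genotypes were csf1ra-/- (single mutant, 3 libraries), csf1ra-/-;b+/- (csf1rb-heterozygous mutant, 3 libraries), csf1ra-/-;b-/- (double mutant, 3 libraries) and wild type (control, 2 libraries analysed here, while the design text speaks of 3). The mutated genes, csf1ra and csf1rb, both encode a receptor for colony-stimulating factor 1, on which microglia depend. Brains had been kept in trypsin on ice before freezing, and complementary DNA was pre-amplified before sequencing. Levels are given as CPM, a read count divided by the library's scaled total, in the order of the replicate numbers of the titles.

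Collagens are triple helices of 3 chains. Fibrillar collagens give tissues tensile strength, collagen IV forms the network of basement membranes, collagen VI forms beaded microfibrils, and the FACIT collagens sit on the surface of fibrils. Laminins are trimers of an alpha, a beta and a gamma chain that start the assembly of basement membranes. Lysyl oxidases are copper-dependent enzymes that cross-link collagen and elastin. In a vertebrate brain the basement membranes of blood vessels and the meninges hold most of this matrix.

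The libraries held 12.8 to 15.3 M reads, and 1 CPM stood for 12.3 to 15.7 reads. The 55 genes together took 0.053% to 0.0792% of the reads of a library. CPM is not divided by gene length, so levels are compared between libraries and not between genes. Mean levels of the 55 ran between 1.62 and 79.2 CPM, 17 of the 55 averaged under 5 CPM, and 0 of the 55 were at 0 in any library. The spread between libraries of a genotype was a median SD of 0.30 on the log2(CPM + 1) scale for the 55 genes, against 0.19 for all genes. csf1rb was at 8.42 to 14.4 CPM in the single, 1.60 to 3.83 CPM in the csf1rb-heterozygous and 1.97 to 2.52 CPM in the double mutants, against 21.6 and 13.6 CPM in controls. csf1ra was at 0.952 to 5.10 CPM in single mutants, 0.584 to 0.976 in csf1rb-heterozygous mutants and 0 to 0.602 in double mutants, against 7.33 and 9.66 in controls. Summed microglia and macrophage markers, 21 genes, came to 585 to 779 CPM, 360 to 390 CPM and 260 to 422 CPM in the same 3 mutant genotypes, against 875 and 1296 CPM in controls. In bulk tissue, fewer cells of a type and less RNA per cell cannot be told apart. The growth hormone gene gh1, 1 of 3 measured pituitary markers and the only one called, averaged 106 ± 28.8 CPM in single mutants, 2.39 ± 4.14 CPM in csf1rb-heterozygous mutants and 0.192 ± 0.332 CPM in double mutants, against 94.3 ± 12.8 CPM in controls (SD). The other 2 pituitary markers did not pass the test in any comparison, and 1 of the 3 was above controls in csf1rb-heterozygous and in double mutants. The part of pituitary tissue in any difference below was not tested.

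In the fit without replicate numbers, no gene of the 55 passed the test in any mutant genotype against control. The test was limma's moderated test on log2(CPM + 1), called at an adjusted p under 0.05 over all genes, and all 3 comparisons share the same 2 control libraries. In single mutants 0 of the 55 were called, where 0.472% of all genes were, and 5 of the 55 had an unadjusted p under 0.05, where 11.4% of all genes did. In csf1rb-heterozygous mutants 0 of the 55 were called, where 0.671% of all genes were, and 10 had an unadjusted p under 0.05, where 15.6% of all genes did. In double mutants 0 of the 55 were called, where 1.16% of all genes were, and 10 had an unadjusted p under 0.05, where 16.1% of all genes did. edgeR's test on the reads recovered from the table, also without replicate numbers, called 0 of the 55 in each of the 3 comparisons. It called 0.454%, 0.472% and 1.23% of all genes in the same order. With a block by title number, limma called 1 of the 55 in double mutants (loxl2b, adjusted p = 0.0315), and 322 of all genes. With a block by description number, limma called 1 of the 55 in single mutants (lama4, adjusted p = 0.0408), and 136 of all genes.

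The middle of the group moved little, and with every library in the fit most in csf1rb-heterozygous mutants. Without 1 library at a time the median was -0.206 to -0.00906 there, -0.0844 to 0.048 in single and -0.151 to 0.0813 in double mutants. These ranges overlap, so the order of the genotypes depends on single libraries. The median log2 difference of the 55 genes was 0.02 in single mutants, -0.12 in csf1rb-heterozygous mutants and -0.0045 in double mutants, where the medians of all genes were 0.0052, 0.0013 and 0.014. In the same order 47.3%, 63.6% and 50.9% of the 55 lay below control, where 49.1%, 49.8% and 48% of all genes did. Groups of libraries did not overlap for 21 of the 55 genes (38.2%, all genes 29.2%) in single mutants, for 17 (30.9%, all genes 34.4%) in csf1rb-heterozygous mutants and for 16 (29.1%, all genes 36.4%) in double mutants. Of the 55, 16.4%, 9.09% and 9.09% were higher without overlap in the same order, where 15.6%, 17.8% and 19.9% of all genes were. Lower without overlap were 21.8%, 21.8% and 20%, where 13.7%, 16.6% and 16.6% of all genes were.

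**Figure D1:**
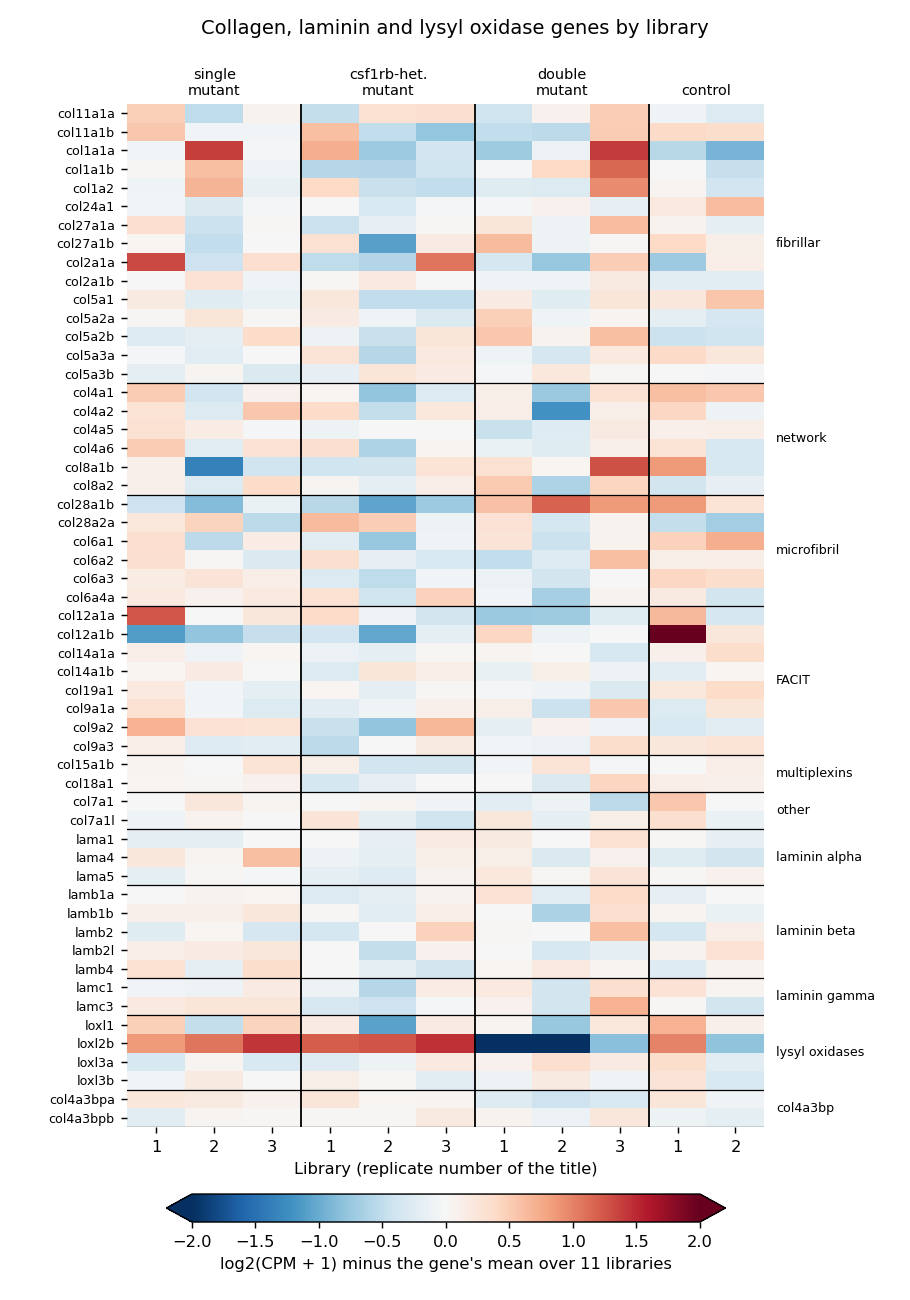
Each row is 1 of the 55 genes and each column 1 of the 11 libraries, grouped by genotype, and the colour gives log2(CPM + 1) minus the gene's mean over the libraries, limited to 2 in either direction. The rows of loxl2b and col12a1b show the strongest colours. loxl2b is blue in the 3 double mutant libraries and in control replicate 2, which is about as pale as double mutant replicate 3. col12a1b is red in control replicate 1.

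Between mutant genotypes 2 of the 55 genes were called, a lysyl oxidase that was lower and a collagen that was higher in double mutants. Both were called between double and single mutants, where 0.943% of all genes were. loxl2b (ENSDARG00000044074, chromosome 5) encodes lysyl oxidase-like 2b. Its mammalian counterpart is known to act on collagen IV. Its level was 7.05, 2.23 and 27.3 CPM in double mutants, against 90.5, 105.5 and 135.9 CPM in single mutants. In csf1rb-heterozygous mutants it was 115.8, 119.6 and 139.2 CPM, and in controls 99.6 and 28.2 CPM. Each double mutant library was below every library of the other genotypes, although the highest of them, 27.3 CPM, lay close to the lower control, 28.2 CPM. These 2 libraries both bear the number 3 in their sample descriptions, while the libraries numbered 1 stood at 7.05 CPM in the double mutant and 99.6 CPM in the control.

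In a fit that did not account for replicate numbers, the difference in loxl2b passed the test against 1 of the 3 other genotypes. Fits that did are given further below. Against single mutants, double mutants averaged 12.2 ± 13.3 CPM and single mutants 110.6 ± 23.1 CPM (SD, n = 3 each), a log2 difference of -3.61 (SE 0.632, adjusted p = 0.0201). Against csf1rb-heterozygous mutants, at 124.9 ± 12.6 CPM, the log2 difference was -3.80 with an adjusted p of 0.0622. Against controls, at 63.9 ± 50.5 CPM (SD, n = 2), it was -2.58 (SE 0.707, adjusted p = 0.108). Double mutant replicate 3 bears on both: without it the log2 differences were -4.62 (adjusted p = 0.00489) and -3.41 (adjusted p = 0.0163). Without control replicate 1 the difference from control was -1.69 (adjusted p = 0.422). The call against single mutants held in 1 of the 6 fits that left out a double or single mutant library, with adjusted p between 0.00278 and 0.0941. That call held in each fit that left out a control or csf1rb-heterozygous library. edgeR gave an adjusted p of 0.0535 for it and called 1 of the 55 in this comparison, col28a1b, where it called 0.949% of all genes, and the authors' deposited table gives a log2 fold change of -3.18 with an FDR of 0.0533.

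The other lysyl oxidases did not share this pattern of levels. loxl1, whose mammalian counterpart acts on elastin, was at 12.1, 6.40 and 13.6 CPM in double mutants, against 16.5, 7.98 and 16.1 CPM in single mutants, and at 13.1, 4.95 and 13.1 CPM in csf1rb-heterozygous mutants, against 19.3 and 12.4 CPM in controls. loxl3b was at 5.46, 6.90 and 5.56 CPM in double mutants and at 7.30 and 4.63 CPM in controls, with overlap. loxl3a averaged 1.90 CPM over all libraries, and its log2 differences from control lay between -0.25 and 0.13.

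col28a1b (ENSDARG00000087087, chromosome 16) encodes a chain of collagen XXVIII, a collagen with von Willebrand factor A domains related to those of collagen VI. Its level was 4.76, 7.69 and 5.89 CPM in double mutants, against 1.87, 1.1 and 2.48 CPM in single mutants and 1.60, 0.837 and 1.30 CPM in csf1rb-heterozygous mutants. In controls it was 5.92 and 3.63 CPM. All double mutant libraries lay above all libraries of the other mutants, and they overlapped the controls.

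Both differences between mutants in col28a1b passed the test. Double mutants averaged 6.12 ± 1.48 CPM and single mutants 1.81 ± 0.690 CPM (SD, n = 3 each), a log2 difference of 1.35 (SE 0.255, adjusted p = 0.0296). Against csf1rb-heterozygous mutants, at 1.25 ± 0.385 CPM, the log2 difference was 1.66 (SE 0.255, adjusted p = 0.0429). There 1 of the 55 genes was called, where 0.0847% of all genes were, which is 14 genes, and 5 of the 55 had an unadjusted p under 0.05, where 5.22% of all genes did. Both calls were lost in each of the 6 fits that left out 1 library of the compared genotypes. Adjusted p was up to 0.119 against single mutants and up to 0.179 against csf1rb-heterozygous mutants. The call against single mutants held in each fit that left out a control or csf1rb-heterozygous library. The call against csf1rb-heterozygous mutants was also lost without control replicate 1 and without single mutant replicate 1. It held without single mutant replicate 2 and without single mutant replicate 3. edgeR gave adjusted p of 0.0448 and 0.0501 for these differences, and so called 0 of the 55 against csf1rb-heterozygous mutants, where it called 0.0968% of all genes. The authors' deposited table gives an FDR of 0.0421 and 0.047. Against controls the log2 difference was -1.04 in single mutants (adjusted p = 0.176), -1.35 in csf1rb-heterozygous mutants (adjusted p = 0.0614) and 0.31 in double mutants (adjusted p = 0.629). Its relative col28a2a was at 5.27, 3.02 and 4.35 CPM in double mutants, 4.95, 5.93 and 2.55 CPM in single mutants and 6.96, 6.21 and 3.76 CPM in csf1rb-heterozygous mutants, against 2.70 and 2.16 CPM in controls. The log2 difference of col28a2a from control was 0.59, 0.62 and 0.93 in these 3 genotypes, and none passed the test.

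**Figure D2:**
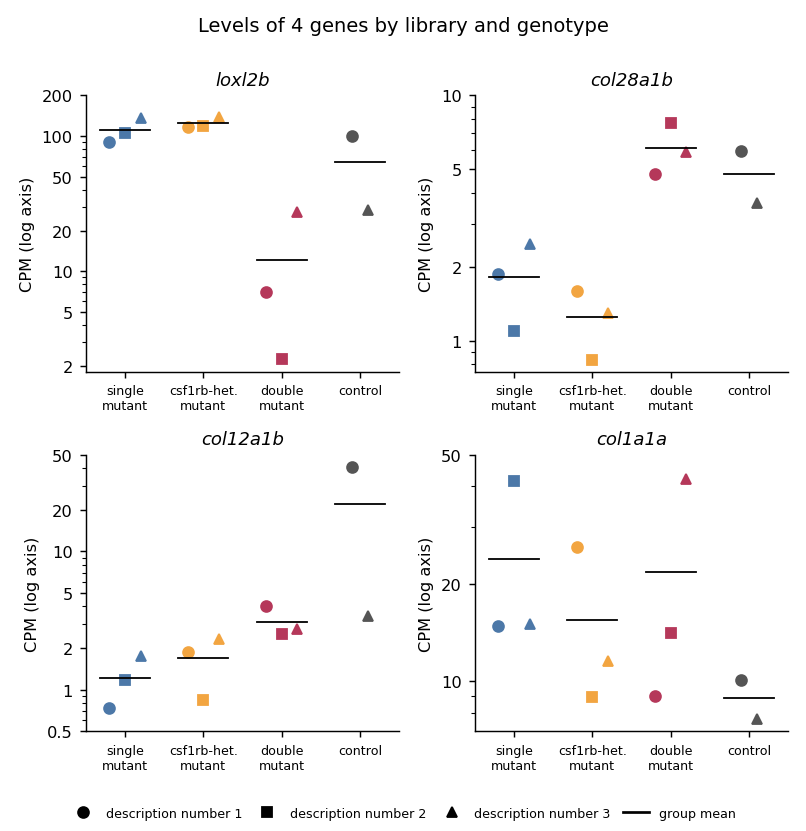
CPM of loxl2b, col28a1b, col12a1b and col1a1a on log axes, 1 point per library, with genotypes from left to right and a bar at each group's mean; the marker's shape gives the number in the sample description. loxl2b is at 2.23 to 27.3 CPM in double mutants, col28a1b at 4.76 to 7.69 CPM there, col12a1b at 40.6 CPM in a single control library, and col1a1a near 42 CPM in 1 single mutant and 1 double mutant library.

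The comparison of csf1rb-heterozygous with single mutants gave 0 calls among the 55 genes, where 0.187% of all genes were called, and 2 of the 55 had an unadjusted p under 0.05, where 6.28% of all genes did. edgeR called 0 of the 55 there as well, where it called 0.145% of all genes. 42 of the 55 genes (76.4%) lay below 0, where 51.8% of all genes did. Their median log2 difference was -0.13, where that of all genes was -0.0072. In the pathway lists, described further below, most genes lay below 0 too. Below 0 were 20 of 26 collagen processing genes, 13 of 16 basement membrane partners and 15 of 20 receptors. So were 15 of 20 elastic and fibrillar partners, 14 of 18 proteases and inhibitors and 10 of 14 endothelial markers. Several marker lists lay below 0 there too: 9 of 9 red cell markers (median -0.83, hbaa1 and hbaa2 called), 9 of 10 skeletal muscle markers (-0.81), 11 of 11 retina and pineal markers (-0.40) and 21 of 21 microglia markers (-0.80). The other way, 9 of 10 neuron markers (median 0.03) and 7 of 8 oligodendrocyte markers (0.23) lay above 0. Between double and csf1rb-heterozygous mutants 32.7% of the 55 lay below 0, where 48.5% of all genes did. Their median was 0.12, where that of all genes was 0.0057, and 37 of the 55 lay above 0. So did 10 of 11 retina and pineal markers (median 0.50) and 8 of 9 red cell markers (0.25). The other way, 12 of 14 endothelial (-0.24), 20 of 21 microglia (-0.665) and 7 of 8 oligodendrocyte markers (-0.17) lay below 0. The part of these tissues was not tested. Both comparisons use the same csf1rb-heterozygous libraries. Groups of libraries did not overlap for 5 of the 55 genes (9.09%, all genes 11.7%) between csf1rb-heterozygous and single mutants, for 13 (23.6%, all genes 16.2%) between double and single mutants and for 7 (12.7%, all genes 9.09%) between double and csf1rb-heterozygous mutants.

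Among the 15 fibrillar collagens, col1a1a varied most between libraries of 1 genotype (SD 0.84 on the log2(CPM + 1) scale), followed by col2a1a, a chain of collagen II (SD 0.80). col1a1a, one of the zebrafish copies of the alpha 1 chain, was at 14.9, 41.7 and 15 CPM in single mutants, 26.0, 8.92 and 11.5 CPM in csf1rb-heterozygous mutants and 9.02, 14.1 and 42.0 CPM in double mutants, against 10.1 and 7.64 CPM in controls. Its log2 difference from control in single mutants, 1.17 (SE 0.608), was the highest among genes without overlap in that comparison and had an adjusted p of 0.491. It was 0.70 without single mutant replicate 2. Single mutant replicate 2 and double mutant replicate 3, the highest libraries for col1a1a, also had the highest sums of 11 retina and pineal markers, 160 and 173 CPM, where the other libraries had 21.7 to 108 CPM. The part of such tissue was not tested. col1a1b was at 15.2, 20.9 and 36.0 CPM in double mutants, against 10.2, 10.1 and 11.6 CPM in csf1rb-heterozygous mutants. Its groups did not overlap there (log2 difference 1.02, SE 0.274, adjusted p = 0.429).

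col2a1b, the other collagen II gene, varied least of the 15 (SD 0.14). It was at 51.6, 63.7 and 48.9 CPM in single mutants, 52.7, 59.3 and 51.5 CPM in csf1rb-heterozygous mutants and 49.4, 48.5 and 58.7 CPM in double mutants, against 44.2 and 44.0 CPM in controls. All 9 mutant libraries were above both controls, by log2 differences of 0.30, 0.30 and 0.23 with adjusted p between 0.308 and 0.43. col5a2a, a chain of collagen V, which controls fibril diameter, was at 28.9, 19.2 and 21.2 CPM in double mutants, against 17.8 and 16.1 CPM in controls (log2 difference 0.41, adjusted p = 0.301). Its copy col5a2b was at 4.06, 2.66 and 4.28 CPM in double mutants, against 1.58 and 1.62 CPM in controls (log2 difference 0.83, SE 0.276, adjusted p = 0.181). col24a1 was at 3.08, 2.49 and 3.13 CPM in single mutants, against 3.88 and 5.56 CPM in controls (log2 difference -0.54, adjusted p = 0.345). The median log2 difference of the 15 fibrillar genes from control was 0.19 in single mutants, -0.0075 in csf1rb-heterozygous mutants and 0.23 in double mutants.

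A FACIT gene had a wide gap between the controls. col12a1b, a chain of collagen XII, was at 0.730, 1.17 and 1.75 CPM in single mutants, 1.88, 0.837 and 2.34 CPM in csf1rb-heterozygous mutants and 4.0, 2.52 and 2.74 CPM in double mutants, against 40.6 and 3.39 CPM in controls. The log2 difference from control was -2.63 in single mutants (adjusted p = 0.151) and -2.38 in csf1rb-heterozygous mutants (adjusted p = 0.141). These sizes rest on control replicate 1: without it they were -1.01 and -0.76, and without control replicate 2 they were -4.26 (adjusted p = 0.0039) and -4.0 (adjusted p = 0.00333). Control replicate 1 also had the highest sum of 5 skin epithelium markers, 251 CPM, where the other libraries had 133 to 210 CPM. Double mutant replicate 3, at 210 CPM for these markers, had col12a1b at 2.74 CPM. Control replicate 1 was also highest for the sum of 9 fibroblast markers, 152 CPM, where the others had 111 to 144 CPM. The same library had the highest sums of microglia (1296 CPM) and oligodendrocyte markers (10330 CPM). Its sum of 10 skeletal muscle markers, 15.9 CPM, was the lowest. The part of any of these tissues was not tested. The copy of col12a1b, col12a1a, was at 8.95, 9.13 and 13.1 CPM in double mutants, against 38.3, 15.5 and 18.5 CPM in single mutants (log2 difference -1.05, SE 0.34, adjusted p = 0.218).

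Other FACIT genes were closer to their controls. col14a1a was at 40.0 to 51.9 CPM in double mutants, 47.6 to 55.0 CPM in single mutants and 43.6 to 51.2 CPM in csf1rb-heterozygous mutants, against 54.0 and 63.9 CPM in controls. Its copy col14a1b had log2 differences from control of 0.17, 0.13 and 0.06 in single, csf1rb-heterozygous and double mutants. col9a2, a chain of collagen IX, was at 8.03, 5.86 and 5.75 CPM in single mutants, against 3.55 and 3.86 CPM in controls (log2 difference 0.67, adjusted p = 0.488).

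**Figure D3:**
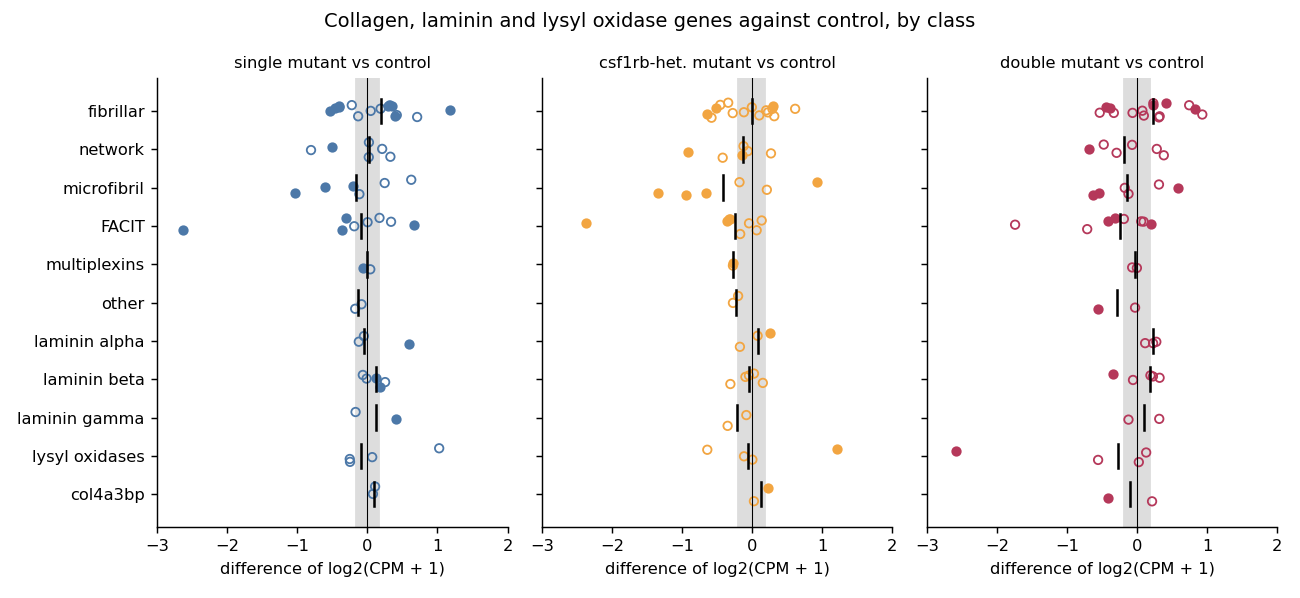
Log2 difference from control of each of the 55 genes (points) by class, in 3 panels for single, csf1rb-heterozygous and double mutants; filled points have groups of libraries that do not overlap, a black bar marks the class median, and the grey band holds the middle 50% of all genes. Most class medians lie inside or near the band, and the outlying points are loxl2b, col12a1b, col28a1b and col1a1a.

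The basement membrane collagens and laminins also had no call by genotype in the fit without replicate numbers. col4a1, the alpha 1 chain of collagen IV, was at 22.4, 11.6 and 16.4 CPM in single mutants, 15.8, 8.51 and 12.5 CPM in csf1rb-heterozygous mutants and 16.7, 8.77 and 19.1 CPM in double mutants, against 23.9 and 22.9 CPM in controls. Its log2 differences from control were -0.50, -0.92 and -0.69, with adjusted p between 0.228 and 0.599. col6a1, a chain of collagen VI, was at 11.1, 5.64 and 9.68 CPM in single mutants, 7.17, 4.67 and 8.17 CPM in csf1rb-heterozygous mutants and 10.5, 6.11 and 9.10 CPM in double mutants, against 12.2 and 14.9 CPM in controls. All mutant libraries of both genes were below both controls, and in every mutant genotype the lowest was replicate 2. col6a3, the partner chain of col6a1, was at 10.3, 8.65 and 12.1 CPM in csf1rb-heterozygous mutants, against 17.2 and 16.4 CPM in controls (log2 difference -0.66, SE 0.164, adjusted p = 0.0975). col4a5, an alpha 5 chain of collagen IV, had log2 differences from control of 0.02, -0.15 and -0.29. col18a1, the source of endostatin, was at 19.4 to 33.9 CPM in mutants and 26.8 and 27.5 CPM in controls. col15a1b, the other multiplexin, had log2 differences from control between -0.28 and 0.04. col7a1, the anchoring fibril collagen, was at 8.83, 9.78 and 7.03 CPM in double mutants, against 15.8 and 10.6 CPM in controls (log2 difference -0.56, adjusted p = 0.186). Its relative col7a1l differed from control by -0.20 to -0.03.

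No laminin chain was called between genotypes in the fit without replicate numbers. lama4, the alpha 4 chain, which in mammals lies in the basement membranes of vessels, was at 32.3, 28.6 and 42.3 CPM in single mutants, 25.7, 24.1 and 30.0 CPM in csf1rb-heterozygous mutants and 29.8, 22.4 and 29.3 CPM in double mutants, against 23.1 and 21.2 CPM in controls. Single and csf1rb-heterozygous mutants did not overlap the controls, with log2 differences of 0.59 (SE 0.179, adjusted p = 0.222) and 0.25 (adjusted p = 0.519). With a block by description number, limma called lama4 in single mutants against control (log2 difference 0.70, adjusted p = 0.0408). lamc3, a gamma 3 chain, was at 23.5, 24.2 and 24.2 CPM in single mutants, against 20.6 and 15.6 CPM in controls (log2 difference 0.40, adjusted p = 0.577), and at 16.1, 14.99 and 19.7 CPM in csf1rb-heterozygous mutants, below all single mutants. lama1 and lama5 differed from control by -0.18 to 0.23 on the log2 scale in the 3 genotypes. lamb1a, lamb1b and lamb2l differed by -0.35 to 0.22 and lamc1, the common gamma chain, by -0.35 to -0.12. The ceramide transfer gene col4a3bpa was at 8.57, 7.62 and 8.30 CPM in double mutants, against 12.5, 10.74 and 10.9 CPM in csf1rb-heterozygous mutants (log2 difference -0.43, adjusted p = 0.593), and col4a3bpb stood at 32.2 to 43.9 CPM in all libraries.

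Replicate 2 of each mutant genotype was low for several basement membrane and microfibril genes. These 3 libraries bear the number 2 in their sample descriptions, where control replicate 2 bears the number 3, and the labels do not say what the number marks. The comparison of the libraries numbered 2 with those numbered 1 and 3 was chosen after the data were seen, with genotype in the fit over 9 mutant libraries. 6 of the 55 genes (10.9%) fell in the libraries numbered 2, where 7.6% of all genes did, and 0 rose, where 0.327% did. The share that fell is near that of all genes, so the count of 6 marks nothing particular to these families. edgeR's test called 4 of these 6, with adjusted p of 0.0649 for col8a2 and 0.0524 for lamc1. The 6 were picked by limma from the same libraries. edgeR's share of all genes is not given here, so the 4 are no rate for the 55.

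The genes that fell in the libraries numbered 2 were 3 network collagens, a collagen VI chain, a laminin gamma chain and a lysyl oxidase. loxl1 averaged 6.44 ± 1.52 CPM in the libraries numbered 2 (SD, n = 3) and 14.1 ± 1.79 CPM in those numbered 1 and 3 (SD, n = 6), a log2 difference of -1.03 (SE 0.109, adjusted p = 0.00276). col4a2, the partner chain of col4a1, was at 7.40, 6.28 and 3.38 CPM in the libraries numbered 2 of single, csf1rb-heterozygous and double mutants, against 10.0 to 13.8 CPM in the 6 others (log2 difference -0.93, adjusted p = 0.00513). For col4a1 the log2 difference was -0.77 (adjusted p = 0.00695) and for col6a1 -0.66 (adjusted p = 0.00785). lamc1 differed by -0.45 (adjusted p = 0.0434) and col8a2, a chain of collagen VIII, by -0.63 (adjusted p = 0.0496). loxl1, col4a1 and col4a2 were called in all 9 fits that left out 1 library, col6a1 in 7, lamc1 in 2 and col8a2 in 0. As the comparison was chosen after these same libraries were seen, its p-values and calls are given as a description only.

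Among the 6 network collagens all lay below 0 in that comparison, with a median log2 difference of -0.69. Of the 55 genes 46 (83.6%) lay below 0, where 46.2% of all genes did, with a median of -0.18, where that of all genes was 0.02. The library numbered 2 was the lowest of its genotype in all 3 genotypes for 14 of the 55 genes (25.5%, all genes 14.4%) and the highest for 3 (5.45%, all genes 11.9%). Endothelial markers moved with it: 13 of the 14 measured lay below 0, and flt1, kdr, kdrl and slc2a1a fell. Their summed level was 258, 222 and 166 CPM in the libraries numbered 2 of single, csf1rb-heterozygous and double mutants, against 267 to 310 CPM in the 6 others. In controls it was 252 and 302 CPM. Other lists moved too: 18 of 21 microglia markers (median -0.275) and 8 of 9 fibroblast markers (-0.128) lay below 0, with 0 called. So did 5 of 8 cartilage and bone markers (-0.249), of which acanb was called lower. Below 0 with 0 called were also 4 of 5 skin epithelium markers (-0.108) and 5 of 9 radial glia markers (-0.00643). Medians of red cell, oligodendrocyte, skeletal muscle, neuron, pituitary, and retina and pineal markers lay above 0, between 0.0554 and 0.182. Of 9 mural cell markers, 5 lay below 0 and cspg4, myh11a and notch3 fell. The part of vessel or other tissue in these differences was not tested. No control library bears the number 2, so those 3 mutant libraries have no control of their own number for col4a1 and col6a1. In the libraries numbered 1 and 3, col4a1 stood at 12.5 to 22.4 CPM in mutants, below the controls at 22.9 and 23.9 CPM. There col6a1 stood at 7.17 to 11.1 CPM in mutants, below the controls at 12.2 and 14.9 CPM.

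**Figure D4:**
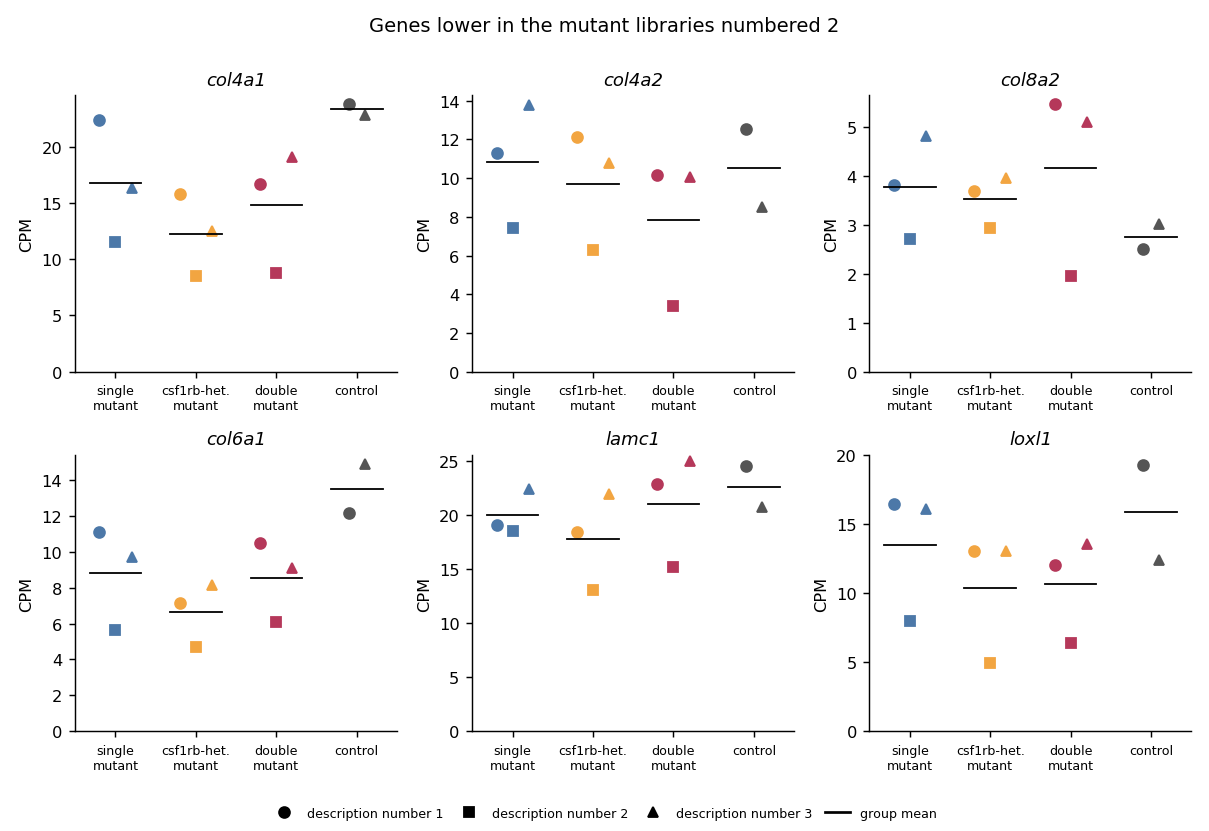
CPM of the 6 genes called lower in the mutant libraries numbered 2, 1 point per library on linear axes that start at 0, with genotypes from left to right, a bar at each group's mean and the marker's shape for the number in the sample description. The squares, libraries numbered 2, are the lowest of each mutant genotype in every panel, such as loxl1 at 7.98, 4.95 and 6.40 CPM.

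Genes that act with these families were described from 6 lists of 176 symbols, of which 102 were measured. 2 of the 102 (1.96%) were called in at least 1 of the 6 comparisons of genotypes, where 2.14% of all genes were. They were a collagen receptor and a basement membrane linker. itga2.3, one of the alpha 2 integrin genes, whose product in mammals binds collagen, was at 8.83, 4.89 and 5.76 CPM in double mutants, against 0.406, 0.293 and 0.437 CPM in single mutants, 0.0696, 0.0697 and 0.195 CPM in csf1rb-heterozygous mutants and 0.592 and 0.0772 CPM in controls. All 3 double mutant libraries were above all others. They are also the only libraries in which it exceeded 1 CPM. The table keeps genes over 1 CPM in at least 3 libraries, so itga2.3 is there only through the group in which it is high. Its differences, and its place among the 2 called, are therefore given as a description only. The log2 difference of itga2.3 was 2.48 against controls, 2.41 against single mutants and 2.72 against csf1rb-heterozygous mutants. These sizes depend on the method for a gene near 0: edgeR gave 4.19, 4.07 and 5.74 in the same order. The reads were 50 nucleotides long, so some may match more than 1 of the itga2 genes or both the a and b copies of the genes named above, and a level can hold reads of its copy.

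nid1a, a nidogen, which links laminin to collagen IV, was at 9.49, 9.52 and 9.25 CPM in single mutants, 7.10, 5.996 and 7.07 CPM in csf1rb-heterozygous mutants and 5.08, 5.18 and 6.83 CPM in double mutants, against 5.06 and 3.55 CPM in controls. All mutant libraries were above both controls. It passed the test in single mutants (log2 difference 0.99, SE 0.184, adjusted p = 0.0459). The call was lost with edgeR (adjusted p = 0.0596). It was also lost in each of the 5 fits that left out a single mutant or control library, with adjusted p up to 0.335.

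The rest of the pathway lists had no call. Of 26 collagen processing genes (hydroxylases, chaperones and propeptide proteases), 12, 11 and 14 lay above control in single, csf1rb-heterozygous and double mutants, with median log2 differences of -0.03, -0.10 and 0.0040. Of 16 basement membrane partners 10, 9 and 9 lay above control. Of 20 receptors 12, 6 and 9 did, and of 20 elastic and fibrillar partners 13, 7 and 9. Of 18 proteases and inhibitors 10, 8 and 6 did. Only 2 of 14 small leucine-rich proteoglycans were measured. Of 9 fibroblast markers 0 were called in any mutant genotype against control, and their sums overlapped at 116 to 140 CPM in single, 111 to 122 CPM in csf1rb-heterozygous and 111 to 144 CPM in double mutants, against 115 and 152 CPM in controls. Of 14 endothelial markers cldn5b, a tight junction gene, fell in double mutants (1.16 ± 0.0736 CPM, against 3.81 ± 0.281 CPM in controls, adjusted p = 0.0236). There 10 of the 14 lay below control and 4 above, with a median log2 difference of -0.227. Against single mutants 13 lay below and 1 above, with a median of -0.295 and 0 called. The part of vessel tissue was not tested.

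Chains that assemble in 1 trimer were set against each other over the 11 libraries. 16 pairs were listed, 14 were measured, and 1 passed Benjamini-Hochberg adjustment of Pearson's r over the 14. This was col1a1a with col1a2, both collagen I chains (r = 0.921, permutation p = 0.0004, adjusted p = 0.0056). Spearman's rho was 0.782 (permutation p = 0.00671, adjusted p = 0.0939). Without single mutant replicate 2 and double mutant replicate 3, the libraries farthest from the median, r was 0.754 (permutation p = 0.021). The collagen I chain col1a1b with col1a2 gave r = 0.702 (adjusted p = 0.0568 by permutation), but r was -0.00033 without the same 2 libraries, so that relation rests on them. col4a1 with col4a2 gave r = 0.715 (permutation p = 0.00909, adjusted p = 0.0568), and -0.19 without the 3 mutant libraries numbered 2. col6a1 with col6a3 gave r = 0.712 and lama5 with lamc1 0.672, both with an adjusted permutation p of 0.0568, and neither reached 0.05 without the 2 farthest libraries (r = 0.468 and 0.362). The groups of libraries with 1 description number hold 3 or 4 libraries, too few for a correlation of their own.

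**Figure D5:**
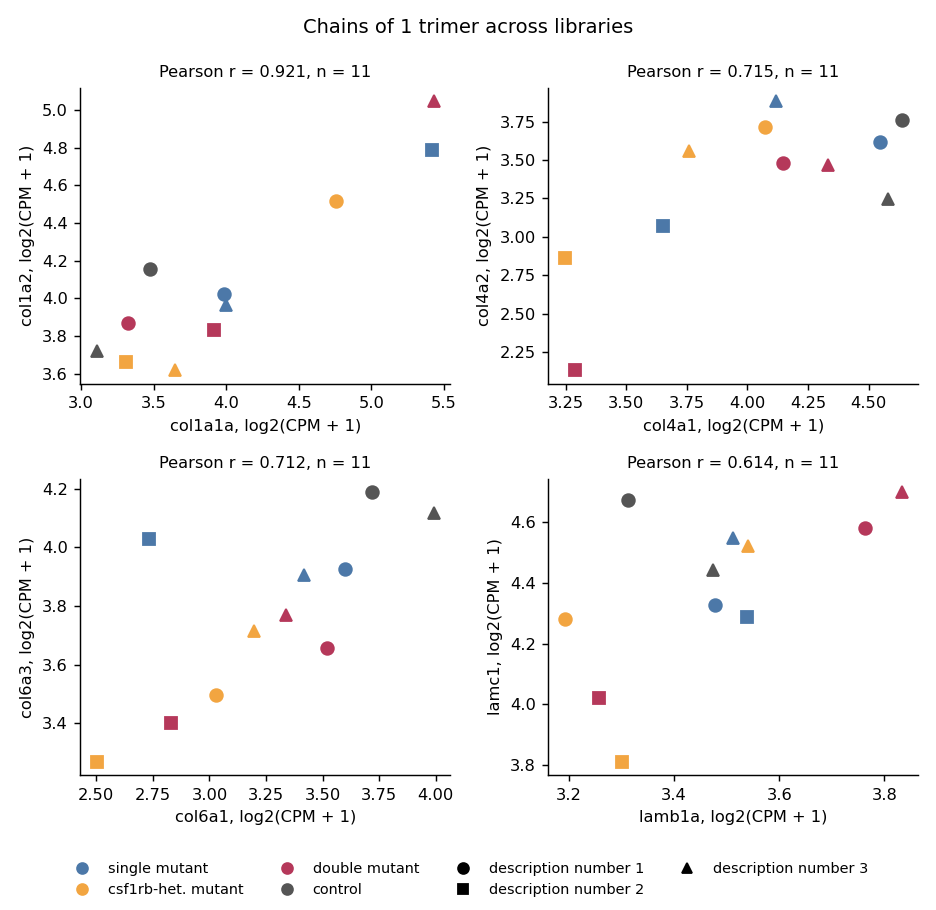
Log2(CPM + 1) of 2 partner chains plotted against each other, 1 point per library, coloured by genotype, with the marker's shape for the number in the sample description. col1a1a and col1a2 rise together (r = 0.921), and in col4a1 against col4a2 (r = 0.715) the libraries numbered 2 make the lower end.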

How the data were processed

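HISAT2 and edgeR are the tools and GRCz10 the build named, per the submitters' processing notes. No version, counting tool, handling of strand or gene model was given in the sources used here. Per the file headers, the authors deposited a signal per gene and library, CPM scaled by a factor of the library, for 16536 genes. All of these passed 1 CPM in 3 or more libraries, so genes of low level are not in the table. All values were whole multiples of 1 read's worth (100% within 0.001 reads), so reads could be recovered, 12.8 to 15.3 M per library. The log2 fold changes and p-values (FDR) that the authors deposited are quoted only where named.

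Here, 6 pairs of genotypes were compared with limma 3.58.1 on log2(CPM + 1), a mean-variance trend and 1 fit of all 11 libraries without a block, adjusted by Benjamini-Hochberg over 16536 genes. Adjusted p-values of single genes are limma's unless another tool is named, and genes under 0.05 were called. The test was checked on simulated data. Whether each replicate is another fish is not stated in the labels. The p-values therefore describe the spread between these samples only, and that spread may be technical. No 2 libraries agreed within sampling noise. Differences of log2(CPM + 1) understate those of low genes.

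The members, lists and tests were chosen with earlier results of these data known. Named were called genes, the 3 highest of each class by mean CPM, and, among genes with a mean of at least 2 CPM (50 of the 55) and no overlap, the 4 largest differences each way against control and 2 each way between mutants. Partner chains with a correlation and called genes of the pathway lists were also named. loxl3a, col2a1a, col8a2, gh1, hbaa1, hbaa2, cldn5b, the neighbours of called genes and the genes called between libraries numbered 2 and the others were named after their values were seen. Chromosomes are those of RefSeq's GRCz12tu annotation, another build than the reads', matched by symbol for 54 of the 55. Correlations used 100000 permutations. Alternatives were pseudocounts of 0.5 and 2, a filter at a mean of 2 CPM, no normalization factor, edgeR 4.0.16 (quasi-likelihood test on recovered reads), blocks by replicate number, each library left out and, added later, no mutant library numbered 2. Sequences were not used here.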

Additional observations from a re-analysis of the deposited data

Results flagged for a closer look

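Mutant genotypes differed from one another for 2 genes, by the contrast between them in the same fit. The effect of double mutation on loxl2b against control differed from that of single mutation by -3.61 on the log2 scale (limma, adjusted p = 0.0201). All 3 double mutant libraries were below all 3 single mutant libraries. The difference was -2.87 to -4.43 when 1 double or single mutant library at a time was left out. The call held in 1 of these 6 fits, and in each fit without a control or csf1rb-heterozygous library. For col28a1b the effects of double and single mutation differed by 1.35 (adjusted p = 0.0296), and those of double and csf1rb-heterozygous mutation by 1.66 (adjusted p = 0.0429). All 3 double mutant libraries were above all 6 libraries of the other mutants, but they overlapped the controls (log2 difference 0.31, limma, adjusted p = 0.629). Without 1 library of the compared genotypes at a time the differences between mutants were 1.15 to 1.52 and 1.5 to 1.8. Both calls were lost in each of the 6 fits. The call against single mutants held in each fit without a control or csf1rb-heterozygous library. The control means cancel out of these differences between mutants, and the controls enter only through the shared estimate of the spread. Groups of 2 or 3 libraries were too small for a test of single outlying libraries.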

How the results depend on the processing

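The numbers of genes called among the 55 were 0, 0, 0, 0, 2 and 1 in the comparisons of single, csf1rb-heterozygous and double mutants with control, csf1rb-heterozygous with single, double with single and double with csf1rb-heterozygous mutants. Without 1 library of the compared genotypes at a time they were 0 to 1 in each comparison with control. They were then 0 in csf1rb-heterozygous against single mutants, and 0 to 1 in double mutants against either. Without a control or csf1rb-heterozygous library, 2 were still called in double against single mutants in each such fit. The ranges of genotype comparisons that follow also leave out only libraries of the compared genotypes. All genes called were 29 to 65, 48 to 62 and 74 to 133 against control (78, 111 and 192 with every library), 9 to 16 (31), 66 to 151 (156) and 8 to 36 (14) between mutants. Medians of the 55 were -0.0844 to 0.0480 in single, -0.206 to -0.00906 in csf1rb-heterozygous and -0.151 to 0.0813 in double mutants against control. Between mutants, in the same order, they were -0.171 to -0.0666, -0.0880 to 0.132 and -0.00294 to 0.220. For the libraries numbered 2, 3 to 5 of the 55 (6 with every library), 340 to 1427 genes (1310) and a median of -0.246 to -0.159 were found. edgeR called 1 in double against single and 0 in double against csf1rb-heterozygous mutants. Without the mutant libraries numbered 2, 0 of the 55 were called in either, and all genes called numbered 42 in single mutants against control, and between mutants 8 (csf1rb-heterozygous against single), 79 (double against single) and 5 (double against csf1rb-heterozygous). The cause was not tested.

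The labels share replicate numbers between genotypes. Deviations of same-numbered libraries correlated at 0.0253 to 0.636 by title number and -0.013 to 0.636 by description number. The median was 0.159 by either number. Differently numbered libraries of different genotypes correlated at -0.46 to 0.182 by either number, with a median of -0.0623. With a median above 0, same-numbered libraries were somewhat alike, although not every such pair passed 0.1. The main fit held no block and leaves this likeness out. A deviation is taken from the mean of the genotype, and the deviations of a genotype sum to 0. Higher values for same-numbered pairs therefore force lower ones for the other pairs, so the 0.159 and -0.0623 are no independent contrast. The 3 pairs of mutant libraries numbered 2 correlated at 0.159, 0.311 and 0.636. With a replicate block by title number, 1 of the 55 was called in double mutants against control (loxl2b, adjusted p = 0.0315, limma) and 2 against csf1rb-heterozygous mutants (col28a1b, and loxl2b with an adjusted p of 0.0198, limma), with 322, 294 and 24 genes called in double mutants against control, single and csf1rb-heterozygous mutants. With a replicate block by description number, 1 of the 55 was called in single mutants against control (lama4, adjusted p = 0.0408, limma) and 0 in double against csf1rb-heterozygous mutants, with 136 genes called in single mutants against control and 367 in double against single mutants.

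Of the named genes under the alternatives, 528 values kept direction and side of the threshold, 7 gained a call, 52 lost one and 0 reversed. Without the normalization factor, further chain pairs passed adjustment: col1a1b with col1a2 (0.708), col1a1a with col1a1b (0.688), col4a1 with col4a2 (0.721), col6a1 with col6a3 (0.712) and lama5 with lamc1 (0.714). With genotype means subtracted, r was 0.771, 0.827 and 0.878 for the first 3 of these, 0.685 for lamb1a with lamc1, 0.819 for lama4 with lamc1 and 0.730 for lama5 with lamc1. Without the libraries numbered 2, r turned to -0.193 for col4a1 with col4a2 and to -0.00788 for col6a1 with col6a2, and was 0.857 for col6a1 with col6a3. Without 1 library at a time, r was 0.447 to 0.896 (col1a1b with col1a2), 0.485 to 0.878 (col1a1a with col1a1b), 0.603 to 0.796 (col4a1 with col4a2), -0.179 to 0.403 (col5a1 with col5a2a), 0.583 to 0.933 (col6a1 with col6a3), -0.121 to 0.209 (col9a2 with col9a3), 0.511 to 0.770 (lama5 with lamc1) and -0.0979 to 0.343 (lamb2 with lamc1). With 2 control libraries, differences within the spread of the 55 genes may have been missed against control, and no detection limit was estimated for them.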

Other observations

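Neighbours of the 2 called genes in RefSeq's GRCz12tu annotation were read out as values. Next to loxl2b on chromosome 5, zmat4a was lower in double mutants, by -0.57 against single mutants (limma, adjusted p = 0.0344) and by -0.77 against controls (adjusted p = 0.0143), and histh1l, on the other side, differed by -0.90 against single mutants (adjusted p = 0.223) and by 0.51 against controls (adjusted p = 0.48). Next to col28a1b on chromosome 16, mios was higher in double than in single mutants by 0.69 (adjusted p = 0.0347) and differed by 0.11 from csf1rb-heterozygous mutants (adjusted p = 1). c1galt1b, on the other side, differed by -0.15 from single mutants (adjusted p = 0.859). In double against single mutants 0.609% of the measured genes of chromosome 5 and 2.08% of those of chromosome 16 were called, where 0.943% of all genes were.

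In the libraries numbered 2, where 7.6% of all genes were called lower, so were 3 of 16 basement membrane partners (hspg2, frem2a and tinagl1), 5 of 20 receptors (itga1, itgb4, ddr1, ddr2l and sgcd) and 2 of 18 proteases and inhibitors (mmp16b and mmp24). Of 26 collagen processing genes, 20 elastic and fibrillar partners and 2 small leucine-rich proteoglycans, 0 were called lower. pcolce2b, an enhancer of propeptide cleavage, was called higher. This comparison was chosen after the data were seen.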
